A study of Mus musculus with 7 samples.

Results

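The regions described here were open in all 3 pre-proB libraries of the series, had lost their peak in WT proB and WT preB cells, and still carried a peak in proB cells that lacked Erg but expressed a prearranged immunoglobulin heavy chain. They were chosen by the measured peak calls: the peaks of all 7 libraries were merged wherever they overlapped, and a merged region was kept if it had a peak in WT pre-proB, Erg KO pre-proB, Rescue pre-proB and Rescue proB and none in WT proB or WT preB. Of 145247 merged regions, 8532 met the rule, which is 5.87% of all regions and 10.2% of the 83444 regions open in all 3 pre-proB libraries. These 8532 are called retained regions. The peak calls in those 6 libraries therefore describe how the regions were chosen, and only the calls in the seventh library, Rescue preB, were not used.

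The assay was ATAC-seq, which uses the Tn5 transposase to cut open DNA in nuclei, on B-lymphoid cells of mice. WT cells carried floxed Erg alleles without Cre (Ergfl/fl), so the controls had the loxP sites but a functional Erg gene. Erg KO cells were Rag1CreT/+;Ergdelta/delta, with Erg deleted by a Cre that acts in lymphoid progenitors and not in the whole animal. Rescue cells were Rag1CreT/+;Ergdelta/delta;IgHVH10tar, the same deletion with a productively rearranged heavy chain knocked into the Igh locus, so that all their B-lineage cells could make that 1 chain. WT and Rescue cells were profiled as pre-proB, proB and preB cells, and Erg KO cells only as pre-proB cells, the stage at which their development stops. Each group was a single library, and the ages of the mice and the number pooled for each library were not given in the labels. Differences are therefore between single libraries throughout, intervals are 95% Wilson intervals that cover counting error only, and no p-value is given.

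pre-proB cells are early B-lineage precursors that have not yet committed to the B lineage. Commitment at the proB stage depends on the transcription factors Ebf1 and Pax5, and Pax5 is known both for activating B-cell genes and for silencing genes of other lineages. Erg is a transcription factor of the ETS family, whose members bind sequences around a GGAA core. In developing B cells, regulatory regions used by multipotent progenitors usually close as those used by B cells open.

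The 6 sequences printed here are the 200 bp centred on the WT pre-proB summit of retained regions. They come from those with the highest lowest rank over the 4 libraries of the rule and those that ranked highest in Rescue preB. They show what the DNA of these regions looked like. All are the plus strand of GRCm38, and capitals mark matches to any of the 14 motifs counted further on, on either strand. The Slit3 window is chr11:35403668-35403867, in intron 4 of Slit3. The Tusc1 window is chr4:93481386-93481585, outside coding genes. The Ror1 window is chr4:100219726-100219925, in intron 1 of Ror1. The Fyb window is chr15:6588223-6588422, in intron 1 of Fyb. The Aldh1a3 window is chr7:66438911-66439110, outside genes. The Iffo1 window is chr6:125152527-125152726, which covers the start of coding exon 5 of Iffo1 and the intron before it.
Slit3: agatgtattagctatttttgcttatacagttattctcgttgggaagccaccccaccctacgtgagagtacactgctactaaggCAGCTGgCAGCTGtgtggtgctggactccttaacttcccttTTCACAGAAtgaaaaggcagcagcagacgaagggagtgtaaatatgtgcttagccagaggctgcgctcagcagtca
Tusc1: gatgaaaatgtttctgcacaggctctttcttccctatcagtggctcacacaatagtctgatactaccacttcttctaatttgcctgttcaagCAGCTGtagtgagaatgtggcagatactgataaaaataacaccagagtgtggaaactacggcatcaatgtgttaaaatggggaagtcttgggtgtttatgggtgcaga
Ror1: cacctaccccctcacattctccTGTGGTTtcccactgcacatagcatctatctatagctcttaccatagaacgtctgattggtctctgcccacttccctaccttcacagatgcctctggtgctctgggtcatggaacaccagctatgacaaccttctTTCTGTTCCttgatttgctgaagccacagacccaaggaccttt
Fyb: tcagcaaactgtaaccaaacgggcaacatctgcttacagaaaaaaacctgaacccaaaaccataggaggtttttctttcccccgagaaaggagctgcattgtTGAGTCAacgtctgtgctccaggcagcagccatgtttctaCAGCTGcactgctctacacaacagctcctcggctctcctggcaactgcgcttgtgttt
Aldh1a3: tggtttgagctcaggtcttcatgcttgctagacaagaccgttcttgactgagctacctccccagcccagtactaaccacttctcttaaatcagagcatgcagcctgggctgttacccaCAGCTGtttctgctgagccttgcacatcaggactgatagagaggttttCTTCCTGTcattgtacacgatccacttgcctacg
Iffo1: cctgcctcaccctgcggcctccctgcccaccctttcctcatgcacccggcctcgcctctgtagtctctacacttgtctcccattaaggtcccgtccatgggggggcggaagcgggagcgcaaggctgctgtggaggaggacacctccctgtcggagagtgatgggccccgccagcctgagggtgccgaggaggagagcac
The E-box CAGCTG stood in the Slit3, Tusc1, Fyb and Aldh1a3 windows, and occurred as a pair separated by a single base in Slit3. The Ror1 window held a RUNX motif (TGTGGTT) and an ETS-IRF motif (GGAANNGAA), the Aldh1a3 window an ETS motif (ACAGGAAG), the Slit3 window a STAT motif (TTCNNNGAA) and the Fyb window an AP-1 motif (TGANTCA). The Iffo1 window held none of the 14.

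The libraries held 76465 to 105649 peaks. A pileup is the number of reads that the peak caller stacked at a position, called fragments here although how it extended them is not stated. The background pileup, which the deposited fold enrichments contain, rises with depth. It was 3.49 in Rescue proB, 3.85 in Rescue preB, 4.42 in WT proB and 3.56 in WT preB, and 4.16 to 4.60 in the pre-proB libraries. Compared with Rescue proB, in which the retained regions had a peak, it was higher in WT proB and about equal in WT preB, in which they had none. Whether depth had a part in these calls was not tested. The lowest summits called were 10 to 12 fragments high. As a check of the stages, the promoters of 19 genes of the Erg-dependent B-cell network, a list taken from the study, were all open in the proB and preB libraries of both genotypes, against 18 of 19 in WT pre-proB, 14 in Rescue pre-proB and 13 in the Erg KO library. Of 23271 regions open in WT proB and in no pre-proB library, 44.6% had a peak in Rescue proB, 46.7% in Rescue preB and 46.4% in WT preB, so neither check separates the proB from the preB stage among the Rescue libraries. The source names of the 3 Rescue libraries give other stages than their titles, and the titles were used here. By source name, the library titled Rescue preB, with all 19 promoters open, would be pre-proB. The library titled Rescue pre-proB, with 14 open, would be proB. With the source names, 2689 regions would meet the rule.

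Retained regions were strongly open in pre-proB cells and weakly open in Rescue proB cells. Heights are given as the summit pileup divided by the background pileup of the same library. The median retained region stood 17.1 times over background in the WT pre-proB library (5th to 95th percentile 4.81 to 72.4), 19.0 times in Erg KO pre-proB (5.16 to 75.3) and 20.5 times in Rescue pre-proB (5.44 to 82.6). In Rescue proB the median was 5.73 times (3.73 to 15.5), a pileup of 20 fragments with a median −log10 q of 7.86. The heights in the 3 pre-proB libraries thus lay close together, whereas the Rescue proB peak of the median member ranked at the 27.7 percentile of that library's peaks, against 64.6 to 69.7 in the pre-proB libraries. In these bulk libraries, a weaker signal in every cell and an open region in fewer of the cells cannot be told apart.

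**Figure D1:**
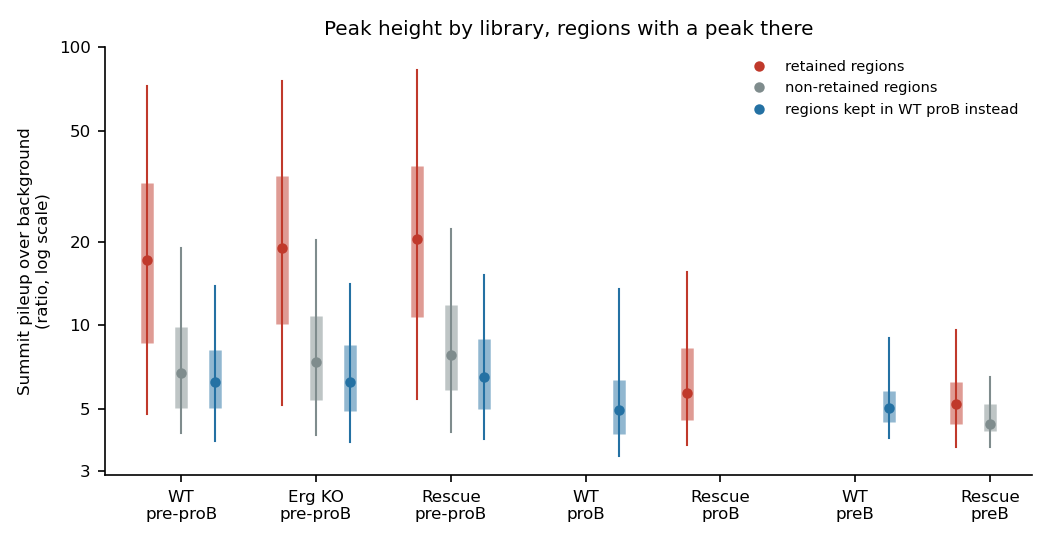
Peak height, as summit pileup over background on a log axis, in each of the 7 libraries (1 library per group), for retained regions, non-retained regions and regions kept in WT proB instead. Points are medians, thick bars the middle 50% and thin lines the 5th to 95th percentiles of regions with a peak in that library; retained regions were at a median of 17.1 to 20.5 in pre-proB libraries and 5.73 in Rescue proB.

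Just inside the rule, the lowest Rescue proB scores belonged to a region in intron 6 of Ets1 (chr9:32748520-32748931), with a pileup of 10 there against 21, 17 and 20 in WT, Erg KO and Rescue pre-proB, and to one in intron 1 of Abhd6 (chr14:8005798-8006738), with 11 against 57, 71 and 73. Just outside it, a region in intron 41 of Nbea (chr3:55780353-55781066) had 14 in Rescue proB and was left out by a WT proB peak of 12, and a region near Pfkp (chr13:6650907-6652034) had 20 in Rescue proB and 13 in WT proB.

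The share retained rose with the height of a region in Rescue pre-proB. Of the 25764 regions open in all 3 pre-proB libraries and without a peak in WT proB and WT preB, 33.1% were retained (32.5 to 33.7). Among those under 6 times background in Rescue pre-proB, 614 of 5427 were retained (11.3%, 10.5 to 12.2). The share was 21.3% (20.2 to 22.3) at 8 to 12 times, 47.6% (45.8 to 49.4) at 16 to 24 times and 86.6% (84.8 to 88.3) at 32 to 48 times. At 48 times or more, 1401 of 1425 were retained (98.3%, 97.5 to 98.9). Nearly every region that had been among the most open in pre-proB cells, and that had no peak in WT proB and preB cells, was therefore still called in Rescue proB. Heights and calls both come from libraries that the rule used. A peak must pass the caller's threshold, so an equal proportional fall in every region would also give a share that rises with height. Whether more than the threshold was involved was not tested. The 17232 non-retained regions were lower from the start, at medians of 6.73, 7.40 and 7.83 times background in WT, Erg KO and Rescue pre-proB.

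A comparison that treated the WT and Rescue proB libraries alike used the 27143 regions open in all 3 pre-proB libraries with no peak in either preB library. It was added after the first values had been seen. The proB calls compared are those that the rule used. Regions with a Rescue proB peak here include every retained region without a Rescue preB peak. The comparison therefore describes the same calls and is not separate support for them. Of these regions, 8931 had a peak in Rescue proB (32.9%, 32.3 to 33.5) and 4068 in WT proB (15.0%, 14.6 to 15.4). Under 6 times background in Rescue pre-proB, the WT proB share was the higher, at 17.5% (16.5 to 18.4) against 13.9% (13.0 to 14.8). At 16 to 24 times it was 13.0% (11.9 to 14.3) in WT proB and 47.8% (46.0 to 49.6) in Rescue proB. At 48 times or more it was 14.4% (12.6 to 16.5) in WT proB and 98.1% (97.2 to 98.7) in Rescue proB. The WT proB share thus stayed between 13.0% and 17.5% at every height, while the Rescue proB share rose with height. Where a peak was called in the most open regions, its median height was 10.3 times background in Rescue proB and 5.66 times in WT proB.

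**Figure D2:**
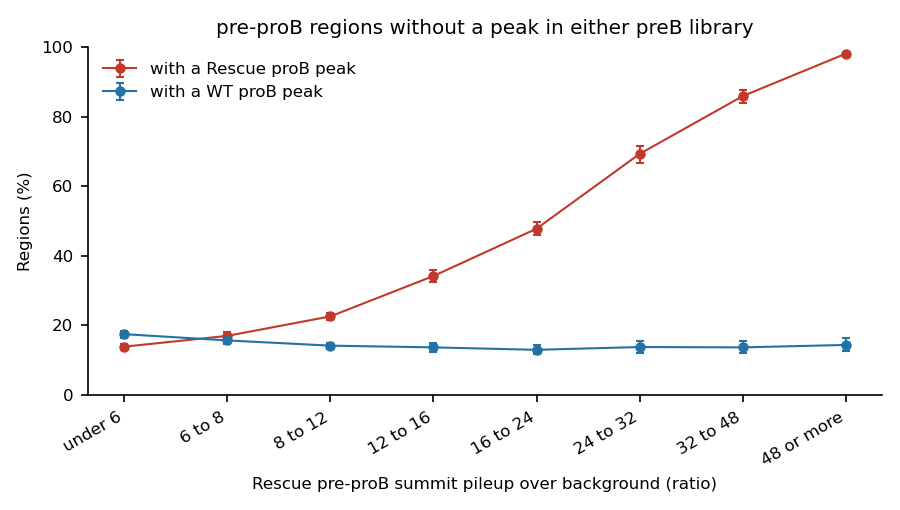
Share of regions with a peak in Rescue proB and in WT proB, among 27143 regions open in all 3 pre-proB libraries and without a peak in either preB library, against their Rescue pre-proB height over background. Bars are 95% Wilson intervals for counting error; the Rescue proB share rose from 13.9% to 98.1% and the WT proB share lay between 13.0% and 17.5%.

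The reverse set held 1827 regions, open in the 3 pre-proB libraries and in WT proB with no peak in Rescue proB or Rescue preB. That was 9.80% (9.38 to 10.2) of the 18649 pre-proB regions without a peak in those later Rescue libraries. By WT pre-proB height, the share was 10.9% under 6 times background and 4.26% at 16 to 24 times. The shares retained, by Rescue pre-proB height, were 11.3% and 47.6%. The 1827 regions stood at medians of 6.25, 6.28 and 6.53 times background in WT, Erg KO and Rescue pre-proB. Only 11 of the 18649 stood at 48 times or more in WT pre-proB, so few high regions could enter the reverse set. In the comparison that did not require the absence of a Rescue proB peak, 180 regions had a WT proB peak at 48 times or more in Rescue pre-proB. The 11 and the 180 come from different base sets and height references, so they are not like for like. The median WT proB height of the 1827 regions was 4.98 times background.

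Retention was partial. The excess over background in Rescue proB was divided by the excess in Rescue pre-proB, so that a ratio of 1 means a region as open as before. The median ratio of retained regions was 0.253 (5th to 95th percentile 0.103 to 1.0). Because a peak must pass the caller's threshold, a weakly open region can be retained only at a high ratio, and the 2643 regions at 32 times background or more in Rescue pre-proB are the fairer measure. Their median ratio in Rescue proB was 0.155 (0.0827 to 0.284), and 6 of them reached a ratio of 0.5. In the same regions the ratio of WT pre-proB to Rescue pre-proB was 0.872 (0.672 to 1.05) and that of Erg KO pre-proB was 0.915 (0.758 to 1.08). Between single pre-proB libraries the strongest retained regions therefore kept most of their height, and in Rescue proB they kept a small part of it. For comparison, 17672 regions past the same height cut had a peak in all 7 libraries. They stood at a median of 65.7 times background in Rescue pre-proB, against 49.4 in the retained ones. Their median ratio was 0.848 in Rescue proB and 0.745 in WT proB. They were chosen to have a peak in WT proB and WT preB, and the retained regions to have none. Some difference in height at the later stages was therefore set by the choice.

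Across the 1401 retained regions at 48 times background or more, the SD of the log2 ratio of pileups of Rescue proB to Rescue pre-proB was 0.49, against 0.25 from counting error alone if fragments were independent. For Erg KO pre-proB the SD was 0.13 against 0.12, and for WT pre-proB 0.17 against 0.12. There was no second Rescue proB library to show the ordinary spread between libraries of that stage and depth. As a description over these regions, which share libraries and depth, Spearman's rho with the Rescue pre-proB pileup was 0.621 for Rescue proB, 0.918 for WT pre-proB and 0.944 for Erg KO pre-proB.

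**Figure D3:**
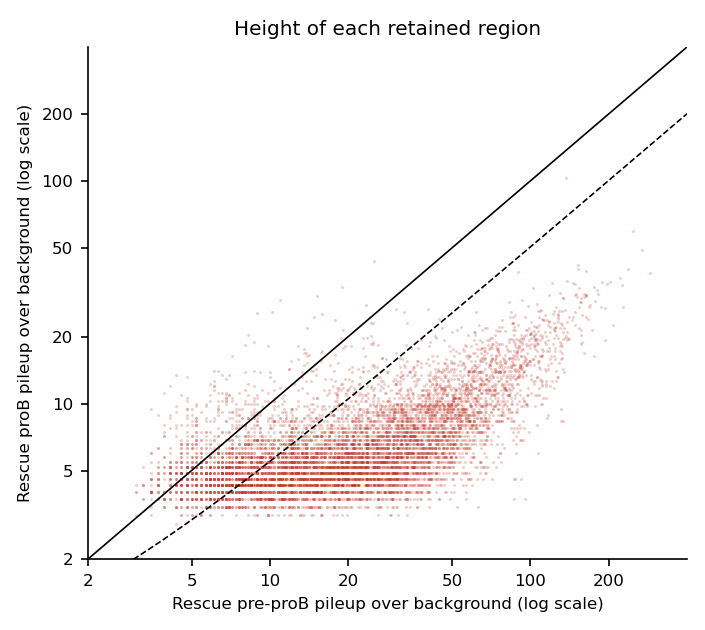
Height over background in Rescue proB against Rescue pre-proB for each of the 8532 retained regions, on log axes. The solid line marks equal height and the dashed line a ratio of 0.5 of the excess over background; most regions lie under the dashed line, with a median ratio of 0.253.

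Rescue preB cells, which played no part in the choice, kept a peak in 2104 of the 8532 retained regions (24.7%, 23.8 to 25.6) and in 585 of the 17232 non-retained regions (3.39%, 3.13 to 3.68). The share over all merged regions was 55.1%, and 66.0% over all regions open in the 3 pre-proB libraries, so most retained regions lost their peak between the Rescue proB and Rescue preB libraries. The gap to non-retained regions was present at every pre-proB height. Under 6 times background, 32.7% of retained (29.1 to 36.5) and 4.36% of non-retained regions (3.82 to 4.98) had a Rescue preB peak. At 32 to 48 times the shares were 18.4% (16.3 to 20.6) and 1.04% (0.286 to 3.72). At 48 times or more, 357 of 1401 retained regions had one (25.5%, 23.3 to 27.8), and only 24 non-retained regions were left, none with a peak (upper bound 13.8%). Where present, the Rescue preB peak was low, at a median of 5.20 times background and a pileup of 20. In the reverse set, 262 of 1827 regions kept in WT proB had a peak in WT preB (14.3%, 12.8 to 16.0).

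**Figure D4:**
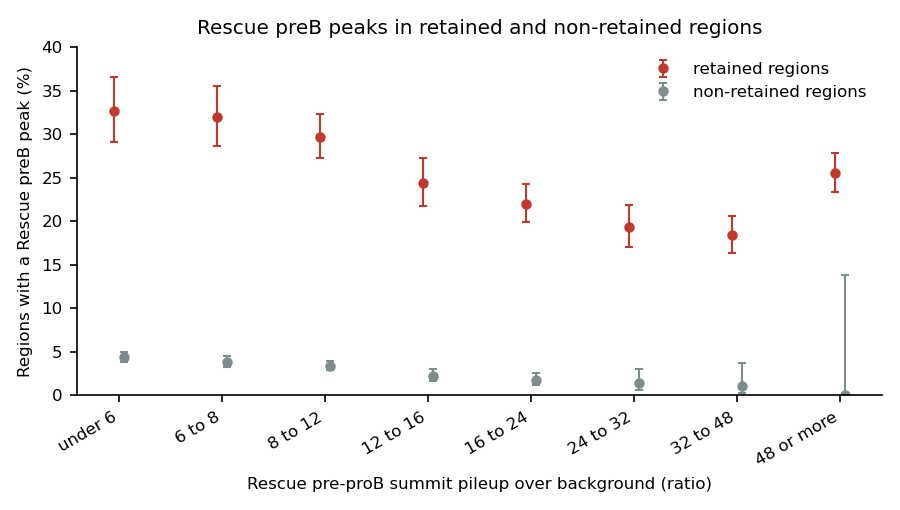
Share of retained and non-retained regions with a peak in Rescue preB, a library the selection did not use, by Rescue pre-proB height over background. Bars are 95% Wilson intervals for counting error; retained regions lie between 18.4% and 32.7% and non-retained regions between 0% and 4.36%.

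A minority of retained regions kept more of their height. Among those at 8 times background or more in Rescue pre-proB, 668 had a ratio of 0.5 or more in Rescue proB and 6556 a lower one. A Rescue preB peak was present in 48.8% (45.0 to 52.6) of the former and 20.7% (19.7 to 21.7) of the latter. The former were lower in Rescue pre-proB, at a median of 10.2 against 27.0 times background. The gap was also present at similar Rescue pre-proB height. At 8 to 12 times it was 42.5% (38.1 to 47.1) against 22.0% (19.2 to 25.1), and at 16 to 24 times 67.9% (57.0 to 77.3) against 19.4% (17.3 to 21.5). At a given Rescue pre-proB height, a higher ratio is by definition a higher Rescue proB peak. The 2 classes therefore differ in Rescue proB height, a value from a library that the rule used. Of the 668, 71 were as high in Rescue proB as in Rescue pre-proB or higher.

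The 12 retained regions with the highest lowest rank over the 4 libraries of the rule lay 8452 bp to 598320 bp from the nearest coding start site. None was a promoter, and their order was that of their Rescue proB pileup. Their pileups were 296 to 1111 in WT pre-proB, 331 to 1211 in Erg KO pre-proB, 413 to 1322 in Rescue pre-proB and 123 to 361 in Rescue proB. All 12 also had a peak in Rescue preB, and 11 had a ratio under 0.5 in Rescue proB.

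The exception was a region in intron 4 of Slit3 (chr11:35402791-35404204), which encodes a secreted ligand of Robo receptors. Its pileup was 420, 555 and 630 in WT, Erg KO and Rescue pre-proB, then 361 in Rescue proB and 388 in Rescue preB, with no peak in WT proB or WT preB. Relative to background it stood 137 times in Rescue pre-proB, 103 times at the proB stage and 101 times at the preB stage of Rescue cells, so most of its height was kept across the Rescue stages. The next highest retained region had 207 fragments in Rescue proB, near Tusc1, and 137 in Rescue preB, at Iffo1.

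The region near Tusc1 (chr4:93480712-93482133) had 1001, 1151 and 1142 fragments in WT, Erg KO and Rescue pre-proB, then 207 in Rescue proB and 79 in Rescue preB. That in intron 1 of Ror1 (chr4:100218497-100220420), a receptor for Wnt5a, had 1053, 1211 and 1240 in the same pre-proB libraries, 171 in Rescue proB and 41 in Rescue preB. Both declined stepwise through the Rescue stages, as did intron 1 of Fyb (chr15:6587841-6589036), an adaptor of T-cell receptor signalling, with 611, 649 and 701, then 146 and 80. A steeper fall was seen 91564 bp from the start of Hgf (chr5:16461084-16462762), the growth factor of the Met receptor, with 1111, 1164 and 1322 fragments in the pre-proB libraries, 135 in Rescue proB and 18 in Rescue preB. Intron 7 of Dync1li2 (chr8:104426965-104428478), a dynein subunit, likewise had 891, 971 and 1095, then 141 and 23. A region 27682 bp from the start of Marco (chr1:120532143-120534324), a macrophage scavenger receptor, had 723, 873 and 934, then 123 and 31. The region near Aldh1a3 (chr7:66438697-66439448), an enzyme of retinoic acid synthesis, fell least of these, from 296, 331 and 413 to 136 and 112. The other 4 were nearest to Diaph3, Ckmt2 (within intron 22 of Rasgrf2), Slc8a1 (intron 1) and Rgs21, with Rescue proB pileups of 140, 138, 128 and 124.

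The 5 retained regions ranking highest in Rescue preB were those at Slit3 and Aldh1a3 and regions at Iffo1, Mgmt and Camk1g. The Iffo1 region (chr6:125152183-125153237), at exon 5 of a gene for an intermediate filament family protein, had 75, 96 and 115 fragments in WT, Erg KO and Rescue pre-proB, then 152 in Rescue proB and 137 in Rescue preB. It was therefore higher in the later Rescue libraries than in any pre-proB library, with an excess ratio of 1.77 in Rescue proB and 1.44 in Rescue preB. The region 389113 bp from the start of Mgmt (chr7:136505014-136505903), which encodes a DNA repair enzyme, had 166, 264 and 230 in the pre-proB libraries, 73 in Rescue proB and 99 in Rescue preB. The region near Camk1g (chr1:193407238-193408020), a calmodulin-dependent kinase, had 162, 186 and 185, then 93 and 94. These 5 regions were chosen for a high Rescue preB rank, so a Rescue preB peak near the height of the Rescue proB peak goes with the choice. The Rescue preB pileup was above that of Rescue proB at Mgmt (99 against 73) and below it at Iffo1 (137 against 152).

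A few members singled out after their values were seen had high Rescue proB ratios. At the Igh locus, a region among the D segments (chr12:113447133-113447860) had 67, 83 and 70 fragments in WT, Erg KO and Rescue pre-proB, then 106 in Rescue proB and 73 in Rescue preB. Over the whole Igh locus, 11 of 23 regions open in pre-proB cells and without a peak in WT proB and preB were retained. Among the D segments it was 2 of 5, and the share over all such regions was 33.1%. The Igh locus is rearranged during B-cell development, and Rescue cells carry a rearranged heavy chain knocked in there. Whether the state of the DNA at the locus had a part in these calls was not tested. A region in intron 2 of Osbpl3 (chr6:50416680-50417537) had 65, 92 and 87, then 117 in Rescue proB and 23 in Rescue preB. A region 47794 bp from the start of Mboat2 (chr12:24783611-24784264) had 30, 43 and 50, then 102 in Rescue proB and no peak in Rescue preB.

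Retained regions were distal. By overlap with 1000 bp on either side of a transcription start site, 6.67% were promoters (6.16 to 7.22), against 21.7% of all regions open in the 3 pre-proB libraries. Introns held 53.3% of retained regions, intergenic sequence 36.3% and exons 3.75%. The median distance to the nearest coding start site was 32757 bp for retained, 29194 bp for non-retained and 18430 bp for all pre-proB regions. Location did not separate retained from non-retained regions, since 35.1% of promoters (32.9 to 37.5), 31.2% of exonic (28.4 to 34.1), 32.9% of intronic (32.1 to 33.6) and 33.4% of intergenic regions (32.4 to 34.3) were retained. Retained regions were wider than non-retained ones, at medians of 686 bp and 457 bp, and the median of all pre-proB regions was 714 bp. Width is the span of the merged peaks, which in retained regions include a Rescue proB peak by the rule. Retained regions were also higher in pre-proB cells, and widths were not compared at equal height. On each of the autosomes and the X chromosome, 29.2% to 35.6% were retained.

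In the 300 bp around the WT pre-proB summit, retained and non-retained regions both had a median GC content of 46.3%, against 49.0% in all pre-proB regions. The RUNX motif TGTGGTT, bound by the Runx factors of blood progenitors, was in 22.3% of retained (21.4 to 23.2), 17.8% of non-retained (17.2 to 18.4) and 14.5% of all regions with a WT pre-proB peak. The E-box CAGCTG, a motif of E proteins, was in 31.9% of retained (30.9 to 32.9), 29.2% of non-retained (28.5 to 29.9) and 26.8% of all WT pre-proB regions. The motif GAGGAAGT of the ETS factor PU.1, encoded by Spi1, was in 11.8% (11.1 to 12.5), 9.45% (9.02 to 9.89) and 9.24%. All 3 were thus more frequent in retained regions than in either other set, beyond counting error. The motif CCCNNGGGA of Ebf1 was in 2.27% of retained (1.98 to 2.61) and 2.15% of non-retained regions (1.94 to 2.37), against 5.35% of all WT pre-proB regions and 5.09% (4.17 to 6.20) of the regions kept in WT proB instead. The ETS motif ACAGGAAG was in 6.01% of retained (5.53 to 6.54), 5.40% of non-retained (5.08 to 5.75) and 7.46% of all WT pre-proB regions, and in 10.3% (8.98 to 11.8) of the regions kept in WT proB instead. The CTCF motif CCACNAGGG was in 1.57% of retained regions (1.33 to 1.86) and 3.17% of all. TCF/LEF motifs (CTTTGAT) were in 3.31% of retained (2.95 to 3.71) and 4.13% of non-retained regions (3.84 to 4.44).

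**Figure D5:**
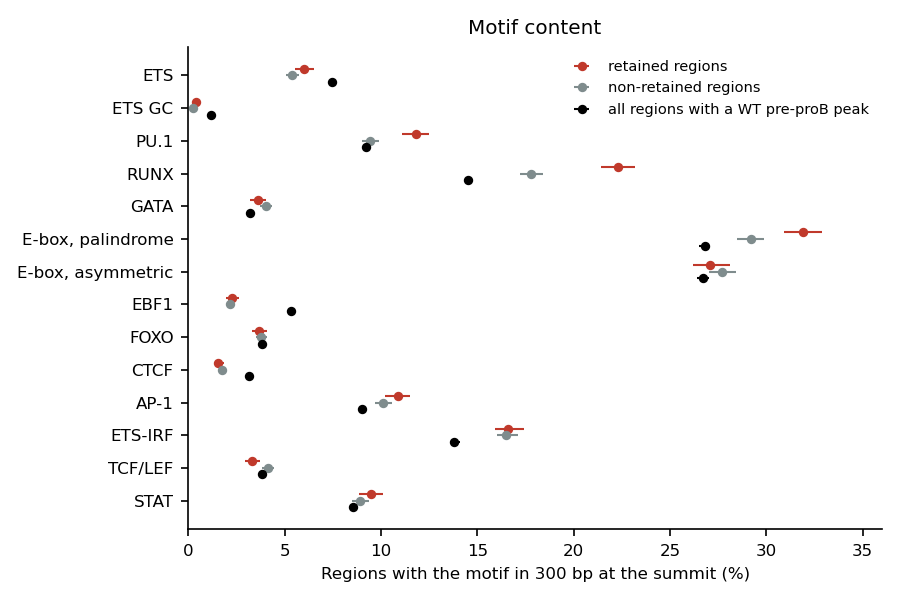
Share of retained regions, non-retained regions and all 90700 regions with a WT pre-proB peak that held each motif on either strand within 300 bp at the WT pre-proB summit. Bars are 95% Wilson intervals for counting error; the palindromic E-box is CAGCTG and the asymmetric one CAGGTG, and the RUNX motif was in 22.3% of retained and 17.8% of non-retained regions.

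Retained regions were also higher, and the motif shares were therefore compared at equal height. When regions with and without a motif were weighted to the same distribution of Rescue pre-proB height, the share retained was 34.0% with and 32.8% without the RUNX motif, a difference of 1.23 percentage points where the unweighted shares were 38.2% and 31.9%. With the PU.1 motif it was 37.4% and without it 32.6%, and with the ETS motif ACAGGAAG 38.0% and 32.8%. For the E-box CAGCTG the order turned, with 30.2% retained among regions that held it and 34.4% among those that did not, and for CTTTGAT it was 29.2% and 33.3%. A related ETS motif, ACCGGAAG, was in only 75 of the 25764 regions, too few for a precise share. Its weighted shares were 46.3% with and 33.1% without it. The weighted shares carry no intervals. For the STAT, AP-1, ETS-IRF, EBF1 and CTCF motifs, the AGATAAG motif of Gata factors, the GTAAACA motif of Foxo factors and the E-box CAGGTG, the weighted difference lay between -3.10 and 2.87 percentage points. The motifs overlap in part: ETS-IRF and PU.1 matches share the GGAA core with the ETS motifs.

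Of 21911 coding genes, 4228 (19.3%) had a retained region in the gene body or within 10 kb of it. The genes with most retained regions were mainly long ones. Nav2, which encodes a neuron navigator protein, held 14 of 30 pre-proB regions without a peak in WT proB and preB, Cdk14, a cyclin-dependent kinase, 11 of 16, Eepd1, an endonuclease family member, 10 of 17, and Asap1, a GTPase-activating protein of Arf, 9 of 16, tied with other genes. Gm20388 and Gm37240, with 36 and 11, are gene models of 4435 kb and 1391 kb that span many other genes.

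Among 8 lists of 12 to 19 genes, T-lineage genes had a retained region in 7 of 12, where the share of all coding genes was 19.3%. Longer genes hold more regions, and the medians were 24.4 kb for these and 17.4 kb for all coding genes. Stem and progenitor, plasmacytoid dendritic and ETS family genes each had 5 of 12, myeloid genes 4 of 12, NK and innate lymphoid genes 3 of 12, the Erg-dependent network 4 of 19 and erythroid and megakaryocyte genes 1 of 12. The order depended on the assignment, since by nearest start site the T-lineage, stem and progenitor, plasmacytoid dendritic and ETS family lists each had 7 of 12. Of the pre-proB regions at these genes without a peak in WT proB and preB, 8 of 18 were retained at T-lineage genes, 12 of 41 at stem and progenitor genes, 11 of 69 at plasmacytoid dendritic genes, 7 of 21 at myeloid genes, 9 of 22 at NK and innate lymphoid genes, 1 of 5 at erythroid and megakaryocyte genes, 12 of 28 at ETS family genes and 15 of 29 at the network genes, against 32.2% over all coding genes. The strongest region of each gene, 34 different ones, had 14 to 48 fragments in Rescue proB, and 7 of them a Rescue preB peak. Of the 34, 29 had an excess ratio under 0.5 in Rescue proB. The other 5 were those of Nfe2 (1.05), Runx2 (0.945), Zeb2 (0.700), Elf1 (0.651) and Pacsin1 (0.605). None of these 5 exceeded 43 fragments in Rescue pre-proB.

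The retained regions of T-lineage genes were of mixed height in pre-proB cells and low in Rescue proB. The promoter of Cd8a, a coreceptor of cytotoxic T cells (chr6:71372948-71373702), had 98, 111 and 168 fragments in WT, Erg KO and Rescue pre-proB and 30 in Rescue proB. Intron 2 of Cd4, the coreceptor of helper T cells (chr6:124879268-124879851), had 175, 198 and 231, then 30. A region near Cd3e, a subunit of the T-cell receptor complex (chr9:44998002-44998626), had 143, 181 and 161, then 24. Each of these was lower in Rescue proB than in every pre-proB library. Intron 1 of Themis, which acts in thymocyte selection (chr10:28703659-28704364), had 128, 122 and 176, then 24. The other 3 genes had lower regions, under the pre-proB medians of all retained regions. Intron 1 of Lck, the kinase of the T-cell receptor (chr4:129571491-129572009), had 59, 64 and 55, then 16. Intron 3 of Gata3, a regulator of T-cell commitment (chr2:9868896-9869619), had 37, 62 and 50, then 16. The region counted for Cd3d lies within 10 kb of it, at the promoter of Cd3g (chr9:44980245-44980676), and had 53, 70 and 83, then 15. A Rescue preB peak was present in 0 of the 8 retained regions of T-lineage genes, a number too small to set against the 24.7% of all retained regions. Tcf7 and Notch1, which start the T-cell programme, had regions without a peak in WT proB and preB but no retained one.

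At myeloid and stem-cell genes the heights were also mixed. A region at Itgam, which encodes CD11b (chr7:128079845-128080724), had 368, 352 and 414 fragments in WT, Erg KO and Rescue pre-proB and 43 in Rescue proB. Intron 4 of Csf3r, the G-CSF receptor (chr4:126030542-126031295), had 185, 182 and 215, then 19. A region near Elane, neutrophil elastase (chr10:79896006-79898406), had 285, 348 and 335, then 37, and lies in Med16. A region near Mpo, myeloperoxidase (chr11:87811402-87811953), had 126, 132 and 129, then 23, and a Rescue preB peak of 20, and lies in Lpo. At these 4 myeloid genes the Rescue proB pileup was thus 43 or lower. Intron 6 of the stem-cell homeobox gene Meis1 (chr11:18996335-18997304) had 236, 255 and 264, then 48, and intron 1 of Mecom (chr3:30091689-30092592) 141, 156 and 174, then 38. The strongest of Lmo2, in its intron 1 (chr2:103961924-103962519), was lower, with 31, 20 and 46, then 14 in Rescue proB and 16 in Rescue preB. Itgam, Mpo, Elane, Mecom and Lmo2 each had 1 retained region with a Rescue preB peak. Mecom held 5 retained regions of 16 without a peak in WT proB and preB. Kit, Flt3 and Cd34, cell-surface markers of progenitors, had 3, 5 and 3 such regions and none was retained.

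Innate lymphoid and plasmacytoid dendritic genes were uneven. Zbtb16, which directs innate lymphoid fates, held 5 of 8, the strongest in intron 2 (chr9:48759019-48759579) with 43, 75 and 90 fragments in WT, Erg KO and Rescue pre-proB, then 30 in Rescue proB and 33 in Rescue preB. All 3 such regions of Tox were retained and none of the 4 of Tbx21, a regulator of NK cells. Among plasmacytoid dendritic genes, Tcf4, their master regulator, had 11 such regions and none retained, and Runx2 had 4 of 35. The chemokine receptor Ccr9 had both of its 2 retained, the stronger (chr9:123756506-123757203) with 86, 108 and 110, then 32 in Rescue proB and 31 in Rescue preB. The 1 region at an erythroid and megakaryocyte gene, Nfe2, lies at the Hnrnpa1 promoter.

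Genes of the B-cell network and of the ETS family also held retained regions. Ebf1 had 4 of 4, the strongest in intron 5 (chr11:44632998-44633677) with 47, 67 and 72 fragments in WT, Erg KO and Rescue pre-proB and 22 in Rescue proB. Pax5 had 3 of 4, the strongest in intron 6 (chr4:44624148-44625325) with 206, 193 and 188, then 44. Bach2 had 6 of 15 and Lef1 2 of 2. Within Erg itself, 1 of 2 was retained, in intron 4 (chr16:95390686-95391306), with 109, 131 and 144, then 27. Ets1 had 3 of 3, the strongest in intron 5 (chr9:32734915-32736563) with 173, 181 and 198, then 46 in Rescue proB and 29 in Rescue preB. Spi1 had 2 of 3, the stronger 9563 bp from its start (chr2:91086200-91086783) with 126, 167 and 187, then 33 and 28. Etv6 had 4 of 11 and Elf1 2 of 3, while none of the 3 of Fli1 was retained. The strongest retained region of Elf1 fell least among those of these genes, with 40, 35 and 38 fragments, then 20, and all were lower in Rescue proB than in each pre-proB library.

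Over the 6 marker lists of non-B lineages, the share of regions retained thus ranged from 15.9% to 44.4%, on either side of the 32.2% over all coding genes. Whether other cell types in the sorted Rescue proB population had a part in these peaks was not tested.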

How the data were processed

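ATAC-seq peaks of 7 libraries, 1 per group, were read as deposited, in MACS2 narrowPeak form on mm10 (GRCm38). The submitters' processing notes name CASAVA 1.8.2, Bowtie2, Picard and MACS2; for other versions, options, duplicate handling, Tn5 shift and control, nothing is given in the sources used. The labels name Tn5 tagmentation, whereas the study's methods also describe sonication. The authors' deposited columns were a peak score, a fold enrichment (a ratio to background), −log10 p-values and q-values, and a summit offset, all per library. The deposited fold was (pileup + 1) / (background + 1), so background and whole-number pileups were recovered from its steps (100% whole within 0.02). Poisson p-values from them matched the deposited −log10 p of 100% of peaks within 0.01.

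Peaks overlapping by 1 bp were merged, each region taking its highest-scoring peak per library. Regions were placed on GENCODE M21 basic genes, and sequence came from RefSeq GRCm38.p6. Motifs were searched on both strands. Named regions were the 12 with the highest lowest rank over the 4 libraries of the rule (1 per nearest gene), the 5 highest in Rescue preB, the strongest of each listed gene, the 6 genes with most retained regions and 2 on either side of the threshold. Members, lists and tests were chosen with earlier results of these data known. With 1 library per group no test was made. Intervals of shares are 95% Wilson intervals, and the height-weighted shares have none. Scripts were tested on simulated data. List length, q threshold, overlap, merging, margin, stage labels, required libraries, windows, gene assignment and, after seeing the data, the height reference were varied. Python 3.11.15, numpy 2.4.6, pandas 2.3.3, scipy 1.17.1, pysam 0.24.0 and matplotlib 3.10.9 were used.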

Additional observations from a re-analysis of the deposited data

How the results depend on the processing

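Recomputed under 13 alternatives, 81 of 145 values stayed within 1.5 times the reported count or inside the reported interval; those that did not are given here. No paired analysis was possible because each group was 1 library and the labels carry no replicate numbers. The number of retained regions was 2689 with the Rescue stages read from the source names, 2730 with lists cut to 0.5 of the shortest and 5506 with WT pre-proB peaks and 50% reciprocal overlap. The source names also gave 98.2% retained, Rescue preB peaks in 78.2% of retained and 44% of non-retained regions, 42 regions kept in WT proB instead, of which 64.3% had a WT preB peak, and a median Rescue proB height of 12.6 times background. Lists cut to the shortest gave 34.3% retained, 7.23% at promoters, a height of 7.16, 997 regions kept in WT proB, 21% of them with a WT preB peak, and 23.8% and 33.7% with RUNX and CAGCTG motifs. Lists cut to 0.5 of that gave 25.2% retained, 2.11% of non-retained regions with a Rescue preB peak, 451 regions kept in WT proB, 16.2% of them with a WT preB peak, 9.93% at promoters, a height of 16.0, GC of 47.7%, and motif shares of 7.25% (ETS), 13.6% (PU.1), 25.4% (RUNX), 3.08% (GATA), 38.6% (CAGCTG), 28.4% (CAGGTG), 3.26% (FOXO), 17.9% (ETS-IRF) and 2.64% (TCF/LEF). A −log10 q of at least 5 gave 28.6% retained, Rescue preB peaks in 27.3% and 4.03% of retained and non-retained regions, a height of 6.88 and CAGCTG in 33.1%. Reciprocal overlap gave 25.4% retained, 18.9% and 2.66% with a Rescue preB peak, 12.2% with a WT preB peak in the reverse set, 5.96% at promoters and a height of 6.30. Leaving out the Rescue or the Erg KO pre-proB requirement gave 32.4% and 31.9% retained. A promoter window of 2500 bp gave 13.6%. A 200 bp motif window gave GC of 47% and shares of 4.71% (ETS), 0.258% (ACCGGAAG), 10.2% (PU.1), 18.7% (RUNX), 2.44% (GATA), 26.7% (CAGCTG), 20.8% (CAGGTG), 1.51% (EBF1), 2.39% (FOXO), 1.09% (CTCF), 7.57% (AP-1), 13.2% (ETS-IRF), 1.95% (TCF/LEF) and 6.19% (STAT), as fewer bases were searched. Nearest start sites gave 6 NK and innate lymphoid genes. With WT pre-proB as the height reference, an alternative added after the data were seen, the median ratio of the strongest regions was 0.171 and 98.8% of the most open regions had a Rescue proB peak. Apart from the smaller search window and the shorter lists, the cause of these shifts was not tested. Under every alternative that recomputed them, a Rescue preB peak was more frequent in retained than in non-retained regions. Peaks record passing a threshold of about 10 to 12 fragments, so a missing peak does not show closed chromatin.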

Other observations

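The spacing of regions along the genome is given as values only. Another retained region lay within 10 kb of 1969 of the 8532 retained regions (23.1%), and another non-retained region within 10 kb of 6253 of the 17232 non-retained regions (36.3%). The non-retained set has more members, so these shares cannot be compared as they stand. More than 100 kb separated 21.5% of retained, 18.7% of non-retained and 13.8% of all pre-proB regions from the nearest coding start site.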
